A study of Homo sapiens with 12 samples.

Results

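The genes described here encode corepressors and p300-type cofactors of nuclear receptors, which work with the estrogen receptor on chromatin. The 9 listed were NRIP1, NCOR1, LCOR, CITED2, CREBBP, EP300, MED1, CARM1 and KAT2B. A gene was taken from the probe sets whose annotation is exactly its symbol, and 8 of the 9 had such a probe set, 1 each, out of 18417 gene symbols on the array. NCOR1 was not analysed here. Symbols and probe set numbers identify each gene below.

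All RNA came from U2OS-ERα, a human osteosarcoma line that carries estrogen receptor alpha, grown without phenol red in medium with charcoal-stripped serum, which is depleted of steroids. Cells received 50 nM of an siRNA pool, and the next day estradiol or ethanol for 3 h. The 4 groups were SRC-1 siRNA with estradiol (siSRC-1_E), SRC-1 siRNA with ethanol (siSRC-1_V), non-targeting siRNA with estradiol (NT_E) and non-targeting siRNA with ethanol (NT_V), with 3 arrays labelled as biological replicates in each. The vehicle cells thus also went through transfection and steroid-poor medium, and every array represents the same line. The concentration of estradiol, and whether the line is 1 clone, are not given in the sources used here. SRC-1, encoded by NCOA1, is a p160 coactivator of the estrogen receptor.

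Estrogen binding changes the surface of the receptor's ligand-binding domain, and short LXXLL motifs of coactivators then dock there. The p160 coactivators bring in the acetyltransferases p300 and CBP and the arginine methyltransferase CARM1, and MED1 links the receptor to the Mediator complex and RNA polymerase II. Corepressors such as NRIP1 (RIP140) and LCOR use the same docking surface on the hormone-bound receptor but recruit histone deacetylases and CtBP proteins, whereas NCoR binds mainly receptors without an activating ligand. NRIP1 is a well-known estrogen-induced gene in breast cancer cells, so a receptor can raise its own corepressor.

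Values are the log2 signals per probe set as the authors deposited them, so a difference of 1 is a doubling of signal. NCOA1, the siRNA target, was at 13.2% of its non-targeting level under vehicle and at 21.5% under estradiol, and it was lower on each of the 6 arrays with SRC-1 siRNA. In cells with SRC-1 siRNA it was 1.00 ± 0.11 log2 higher with estradiol than with vehicle (SE, limma, adjusted p = 0.00029), and with non-targeting siRNA the difference of 0.29 was not called (adjusted p = 0.275). With a covariate from the control probe sets the first of these became 0.53 log2 and lost its call (limma, adjusted p = 0.461). The difference between the 2 estradiol effects on NCOA1 was not called, in the main fit or any alternative (limma, adjusted p of the alternatives 0.0667 to 0.743). For ESR1 the brighter of 2 probe sets was taken (8122843). Its signal averaged 12.11 and spanned 0.180 log2 over the 12 arrays, and it was called in none of the 5 designed comparisons. With SRC-1 siRNA under estradiol, 1 of 9 alternatives that leave out no array called it lower (limma, adjusted p = 0.018). For SRC-1 siRNA averaged over both treatments, a comparison added after the data had been seen, the main fit did not call ESR1. Of 8 such alternatives, 2 called it lower there (limma, adjusted p down to 0.0106). The mesenchymal and bone genes RUNX2, COL1A1, COL1A2, SPARC, ALPL, VIM and SP7 were at or above the lower quartile of all probe sets on every array, as were the epithelial genes KRT8, KRT18, EPCAM and CDH1 and the leukocyte genes CD3E and CD14. The bone gene IBSP and the leukocyte gene PTPRC were below it on all 12. Among these markers ALPL was called lower with SRC-1 siRNA under estradiol (-0.43 log2) and under vehicle (-0.23), and COL1A2 lower with estradiol after SRC-1 siRNA (-0.22). Their part in the results below was not tested. Array medians lay between 6.86 and 6.90, and arrays of 1 group correlated at 0.995 to 0.997 over probe sets. No member signal fell below the lower quartile on any array.

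Of the 8 genes, NRIP1 and CITED2 changed with estradiol, in opposite directions. For orientation, the 250 bases before 1 of the 3 annotated transcription starts of each are shown, since a receptor may act at a promoter as well as at a distance. For NRIP1 the window is the 1 of its 3 that holds a half-site, and for CITED2, where none of the 3 does, 1 was taken. Both are from RefSeq (GRCh38.p14, minus strand, printed 5′ to 3′). All 8 measured symbols matched the promoter table, with 15 windows among them. The NRIP1 window is chr21:15065001-15065250 and the CITED2 window is chr6:139374649-139374898. Capitals mark the half-site of an estrogen response element, GGTCA or its reverse complement TGACC.
NRIP1: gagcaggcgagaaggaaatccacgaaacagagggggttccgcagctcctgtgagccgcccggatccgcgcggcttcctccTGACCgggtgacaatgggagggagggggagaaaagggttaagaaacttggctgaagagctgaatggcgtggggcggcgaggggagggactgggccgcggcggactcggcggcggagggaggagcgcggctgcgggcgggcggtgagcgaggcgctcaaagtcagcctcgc
CITED2: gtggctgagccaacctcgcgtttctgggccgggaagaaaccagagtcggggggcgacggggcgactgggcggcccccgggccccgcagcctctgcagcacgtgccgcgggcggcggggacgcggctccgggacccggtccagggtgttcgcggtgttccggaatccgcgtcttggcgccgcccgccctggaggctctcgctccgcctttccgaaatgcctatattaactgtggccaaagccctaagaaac
The half-site in the NRIP1 window begins at position -170 relative to the start. Searched on both strands, the half-site was found in 2 of the 15 member windows (1 of NRIP1 and 1 of MED1), and in 32.6% of all 35116 promoter windows of that length. The full palindrome GGTCANNNTGACC, which contains both half-sites, was in 0 of the 15 and in 0.0399% of all windows. A match is only a stretch of letters in this window, and nothing follows from its absence.

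Estradiol raised NRIP1 and lowered CITED2 whether or not SRC-1 had been knocked down. NRIP1 was 1.34-fold higher when the siRNA was non-targeting and 1.32-fold higher after SRC-1 siRNA. CITED2 was at 63.0% of its vehicle signal in the non-targeting cells and at 59.7% in the knockdown cells. LCOR, CREBBP, EP300, MED1, CARM1 and KAT2B passed the test in neither comparison. A probe set was called when its unadjusted limma p was under 0.01 and its Benjamini-Hochberg adjusted p, over all 29094 tested probe sets, was under 0.05. With non-targeting siRNA 1 of 8 members was called higher and 1 lower, against 2.73% of all those tested (1.85% higher and 0.873% lower). With SRC-1 siRNA it was again 1 higher and 1 lower of 8, against 6.88% of all those tested (4.49% higher and 2.39% lower).

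**Figure D1:**
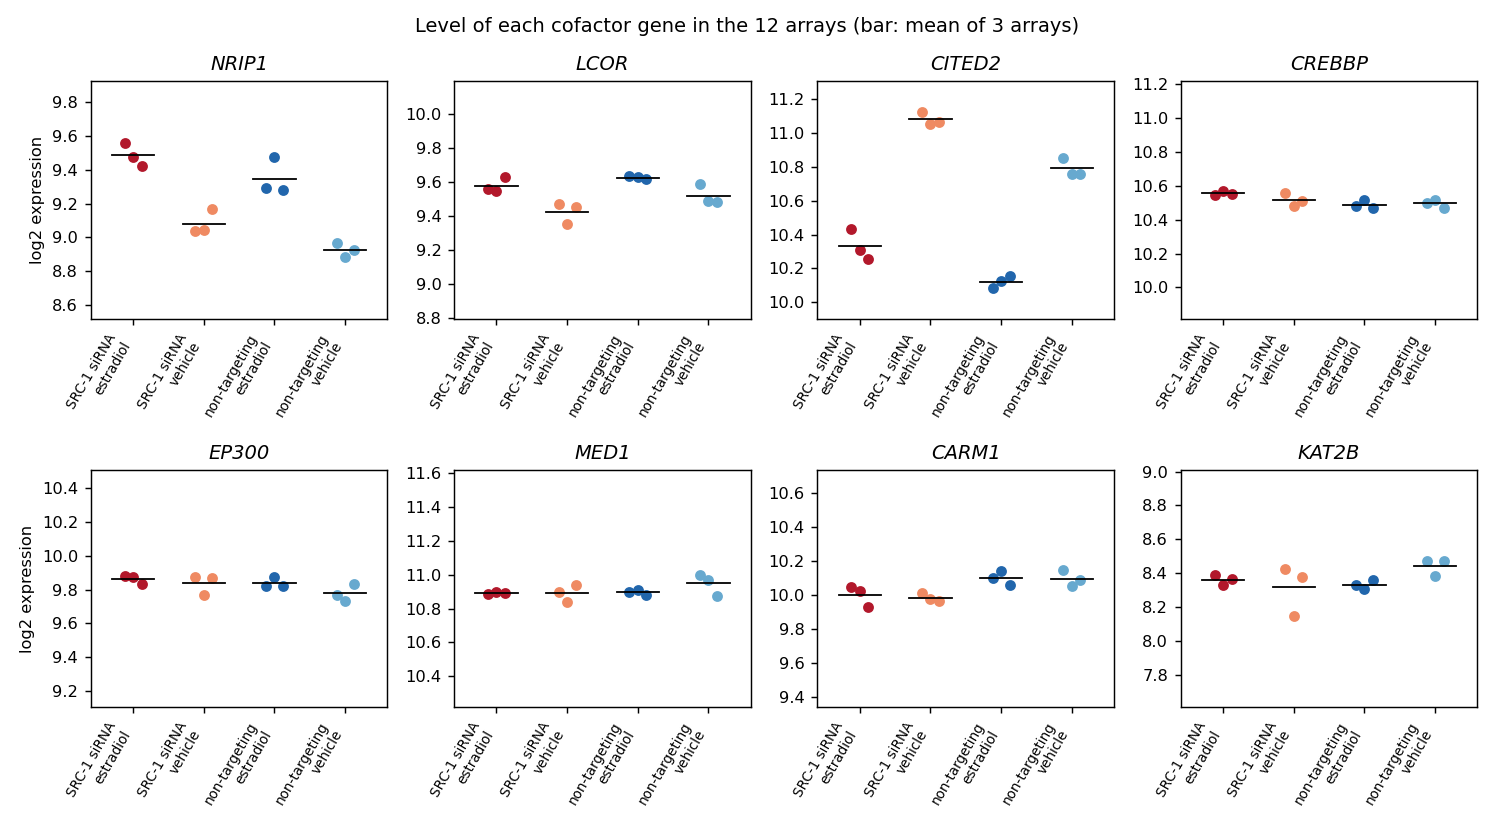
Log2 signal of the 8 measured genes on each of the 12 arrays, by group, with points for arrays and bars for the group mean. NRIP1 is higher and CITED2 lower on every estradiol array than on every vehicle array with the same siRNA, while CREBBP spans only 0.102 log2 over the 12 arrays.

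NRIP1 (probe set 8069553), the corepressor RIP140, had signals of 9.29, 9.47 and 9.28 in NT_E cells, against 8.97, 8.88 and 8.92 in NT_V cells. In siSRC-1_E cells they were 9.56, 9.47 and 9.42, against 9.04, 9.04 and 9.17 in siSRC-1_V cells. Every estradiol array was above every vehicle array, also across the siRNAs. The estradiol difference was 0.42 ± 0.06 log2 in non-targeting cells and 0.40 ± 0.06 in knockdown cells (SE, limma, adjusted p = 0.00324 in each). In size this was moderate: 1.57% of probe sets had a larger difference in non-targeting cells, and 3.39% in knockdown cells. Leaving out any 1 array kept both calls, with differences between 0.36 and 0.45 log2 (non-targeting) and between 0.37 and 0.45 (SRC-1 siRNA). Both calls were lost, with the sizes kept at 0.42 and 0.40 log2, when the mean deviation of the control probe sets was a covariate (limma, adjusted p = 0.0684 non-targeting and 0.438 SRC-1 siRNA).

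The SRC-1 siRNA itself was tested separately on the corepressor. NRIP1 averaged 9.08 ± 0.07 in siSRC-1_V cells and 8.93 ± 0.04 in NT_V cells (SD, n = 3 each), with every knockdown array above every non-targeting one. That difference of 0.16 ± 0.06 log2 was not called (limma, adjusted p = 0.33). Under estradiol NRIP1 averaged 9.49 ± 0.07 in siSRC-1_E cells and 9.35 ± 0.11 in NT_E cells (SD, n = 3 each), and these groups overlapped (difference 0.14 log2, limma, adjusted p = 0.32). The SRC-1 siRNA effect averaged over both treatments, added after the data had been seen, was not called in the main fit. Of 8 alternatives that leave out no array, 2 called it higher (limma, adjusted p down to 0.0307). So did 1 of the 12 fits without 1 array (limma, adjusted p = 0.0439). The estradiol effect differed between the siRNAs by -0.02 log2, with a 95% interval of -0.21 to 0.18 (limma, adjusted p = 0.983). An effect of SRC-1 siRNA on the induction of NRIP1 as large as 0.21 log2 is therefore within the interval, and a loss of the whole 0.42 log2 is outside it.

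CITED2 (probe set 8129937) encodes a small protein that binds p300 and CBP, competes there with HIF-1α and serves AP-2 factors as a coactivator. Its signals were 10.09, 10.12 and 10.16 in NT_E cells, against 10.85, 10.76 and 10.76 in NT_V cells. They were 10.43, 10.31 and 10.26 in siSRC-1_E cells, against 11.12, 11.05 and 11.06 in siSRC-1_V cells. All 6 estradiol arrays lay below all 6 vehicle arrays. The difference was -0.67 ± 0.05 log2 with non-targeting siRNA (limma, adjusted p = 2.59e-05) and -0.74 ± 0.05 with SRC-1 siRNA (limma, adjusted p = 8.67e-06). Among decreases over all tested probe sets these ranked 15 and 12. Since bulk RNA was measured, fewer cells expressing the gene and less RNA per cell cannot be told apart.

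With SRC-1 siRNA, CITED2 lay higher under both treatments. Under vehicle it averaged 11.08 ± 0.04 in siSRC-1_V cells and 10.79 ± 0.05 in NT_V cells (SD, n = 3 each), a difference of 0.29 ± 0.05 log2 or 1.22-fold (limma, adjusted p = 0.0233). It was the 1 of 8 members called for the knockdown under vehicle, where 1.21% of all probe sets were called and 0.265% were called higher. This call was close to its threshold. It was lost without NT_V replicate 2 (adjusted p = 0.0888, limma) or NT_V replicate 3 (0.106), and without siSRC-1_V replicate 1 (0.0824), 2 (0.0649) or 3 (0.0694), while the difference stayed between 0.27 and 0.32 log2. It was also lost when only the 6 compared arrays were fitted (limma, adjusted p = 0.102).

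Under estradiol CITED2 averaged 10.33 ± 0.09 in siSRC-1_E cells and 10.12 ± 0.03 in NT_E cells (SD, n = 3 each). Each siSRC-1_E array was above each NT_E array, yet the difference of 0.21 ± 0.05 log2 was not called (limma, adjusted p = 0.0773). None of the 8 members was called in this comparison (limma), where 1.80% of all probe sets were. At an unadjusted p under 0.05, 15.8% of all probe sets passed. The estradiol effect on CITED2 differed between the siRNAs by -0.08 log2, with a 95% interval of -0.24 to 0.09 (limma, adjusted p = 0.875). Averaged over both treatments, a comparison added after the data had been seen, SRC-1 siRNA gave 0.25 ± 0.04 log2 (limma, adjusted p = 0.00321), with 1 of 8 members called against 5.10% of all probe sets. That call was kept with each of the 12 arrays left out in turn, at adjusted p between 0.00433 and 0.0121. The order of the group means of CITED2 was thus siSRC-1_V, NT_V, siSRC-1_E and NT_E from highest to lowest, and no array of 1 group overlapped those of the next.

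**Figure D2:**
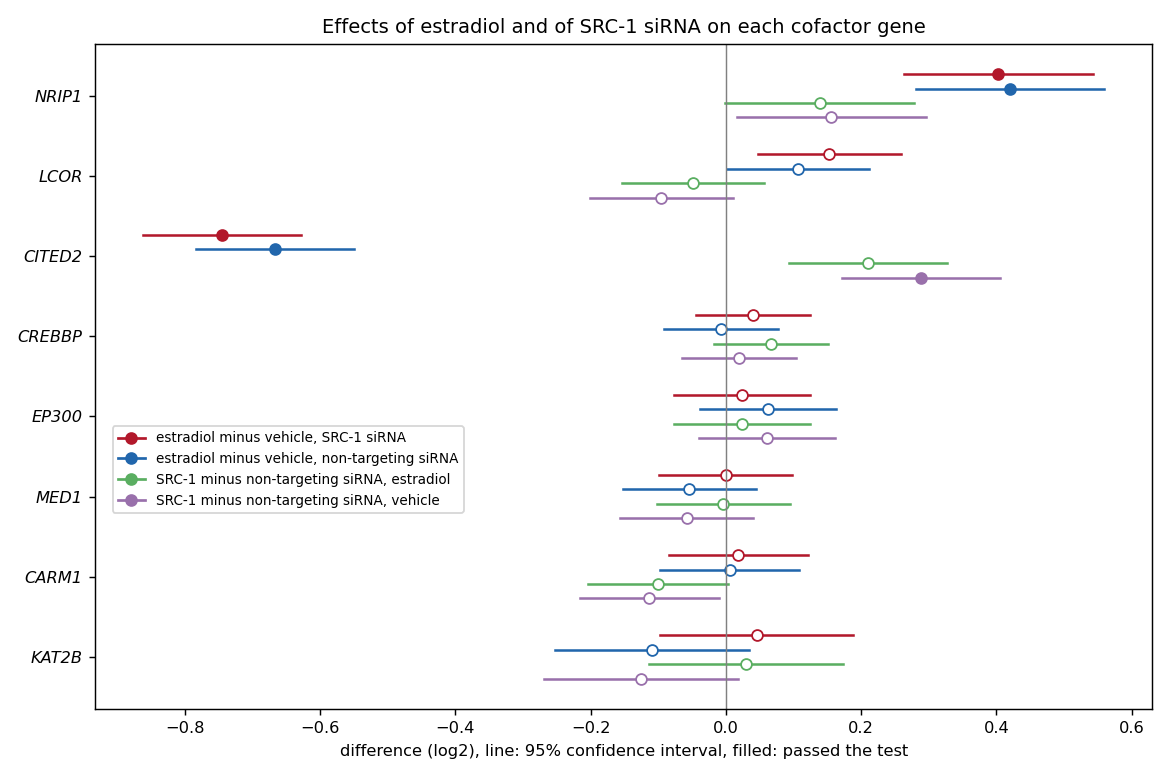
Differences in log2 signal for the 8 measured genes in the 4 comparisons of 2 groups, with points for the fitted difference (filled where called) and lines for its 95% interval. The intervals of NRIP1 and CITED2 for estradiol lie clear of 0 with both siRNAs, and those of the other 6 genes stay within 0.27 log2 of 0.

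LCOR (probe set 7929596), the other corepressor measured, recruits CtBP and histone deacetylases to hormone-bound receptors. Its signals were 9.64, 9.63 and 9.62 in NT_E cells, against 9.59, 9.49 and 9.48 in NT_V cells. In siSRC-1_E cells they were 9.56, 9.54 and 9.63, against 9.47, 9.35 and 9.45 in siSRC-1_V cells. The estradiol arrays were all above the vehicle arrays with the same siRNA, but the groups were close. The differences of 0.11 ± 0.05 log2 with non-targeting siRNA (limma, adjusted p = 0.368) and 0.15 ± 0.05 with SRC-1 siRNA (limma, adjusted p = 0.082) were not called. The second was called without the dimmest probe sets (limma, adjusted p = 0.0398) and with a trended and robust variance (0.0344), and became -0.02 log2 with the control probe set covariate.

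Averaged over both siRNAs, a comparison also added after the data had been seen, LCOR was 0.13 ± 0.03 log2 or 1.09-fold higher with estradiol (limma, adjusted p = 0.0341). In that average 3 of 8 members were called, LCOR with NRIP1 and CITED2, where 9.96% of all probe sets were. The LCOR call was kept only without NT_V replicate 1, siSRC-1_V replicate 1 or siSRC-1_E replicate 2. Without any 1 of the other 9 arrays the adjusted p lay between 0.0533 and 0.0796 (limma). The SRC-1 siRNA difference of LCOR was -0.10 ± 0.05 log2 under vehicle, with all knockdown arrays below the non-targeting ones, and -0.05 ± 0.05 under estradiol. Neither was called (limma, adjusted p = 0.45 and 0.677).

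Of the 8 members, the acetyltransferase genes CREBBP and EP300 had the smallest ranges over the arrays. CREBBP (probe set 7999044) encodes CBP, and its signals were 10.55, 10.57 and 10.55 in siSRC-1_E, 10.56, 10.48 and 10.51 in siSRC-1_V, 10.48, 10.52 and 10.47 in NT_E, and 10.50, 10.52 and 10.47 in NT_V cells. The range over the 12 arrays was 0.102 log2, and 98.9% of all tested probe sets had a larger one. The siSRC-1_E arrays were all above the NT_E arrays, by 0.07 ± 0.04 log2 on average, which was not called (limma, adjusted p = 0.44). No 95% interval of CREBBP in the designed 2-group comparisons reached beyond 0.15 log2.

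EP300 (probe set 8073345) encodes p300, the close relative of CBP. Its signals were 9.88, 9.87 and 9.83 in siSRC-1_E, 9.88, 9.77 and 9.87 in siSRC-1_V, 9.82, 9.88 and 9.82 in NT_E, and 9.77, 9.73 and 9.83 in NT_V cells. All 4 groups overlapped with their counterparts. The estradiol difference was 0.06 ± 0.05 log2 in non-targeting cells and 0.02 ± 0.05 in knockdown cells, and neither was called. The range over arrays was 0.149 log2, and 94.8% of tested probe sets had a larger one.

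KAT2B (probe set 8078227) encodes PCAF, an acetyltransferase that joins p300 and the p160 proteins. Its signals were 8.39, 8.33 and 8.37 in siSRC-1_E, 8.42, 8.15 and 8.38 in siSRC-1_V, 8.33, 8.31 and 8.36 in NT_E, and 8.47, 8.38 and 8.47 in NT_V cells. The value of 8.15 in siSRC-1_V replicate 2 stood below the other 11 arrays. Estradiol gave -0.11 ± 0.07 log2 with non-targeting siRNA, with all NT_E arrays below all NT_V arrays, and 0.05 ± 0.07 with SRC-1 siRNA. Neither was called, and the difference between them was 0.15 log2, with a 95% interval of -0.05 to 0.36 (limma, adjusted p = 0.769). Without siSRC-1_V replicate 2 the SRC-1 siRNA value turned to -0.04 log2 and the difference became 0.07 log2. With the control probe set covariate the estradiol value was -0.26 log2 with SRC-1 siRNA and -0.25 log2 with non-targeting siRNA. The difference between them was then -0.0019 log2.

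CARM1 (probe set 8025766) encodes an arginine methyltransferase that acts on histone H3 and on p300 and CBP, and it reaches the receptor through the p160 coactivators. Its signals were 10.05, 10.02 and 9.93 in siSRC-1_E cells, against 10.10, 10.14 and 10.06 in NT_E cells. They were 10.01, 9.97 and 9.96 in siSRC-1_V cells, against 10.15, 10.05 and 10.09 in NT_V cells. The SRC-1 siRNA arrays lay below the non-targeting arrays with each treatment. The differences were -0.10 ± 0.05 log2 under estradiol and -0.11 ± 0.05 under vehicle, and neither was called (limma, adjusted p = 0.331 and 0.339). Averaged over both treatments, CARM1 was not called in the main fit. It was called lower under 2 of 8 alternatives that leave out no array (limma, adjusted p down to 0.0269). The estradiol difference of CARM1 was 0.02 ± 0.05 log2 (SRC-1 siRNA) and 0.01 ± 0.05 (non-targeting siRNA).

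MED1 (probe set 8014841) encodes the Mediator subunit that contacts nuclear receptors. Its signals were 10.89, 10.90 and 10.89 in siSRC-1_E, 10.90, 10.84 and 10.94 in siSRC-1_V, 10.90, 10.91 and 10.88 in NT_E, and 11.00, 10.97 and 10.88 in NT_V cells. No pair of compared groups was separate. The largest of the 4 differences, for SRC-1 siRNA under vehicle, was -0.06 ± 0.05 log2 (limma, adjusted p = 0.659).

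Over the 6 members not called in any designed comparison, the largest 2-group difference was 0.15 log2, and the furthest 95% bound was 0.27 log2, or 1.20-fold. Counting separation alone, the 2 groups did not overlap for 4 of 8 members with estradiol and non-targeting siRNA, for 3 with estradiol and SRC-1 siRNA, for 4 with SRC-1 siRNA under vehicle and for 3 under estradiol. Over all tested probe sets those shares were 21.0%, 25.8%, 18.4% and 22.3%. The median difference of the 8 members lay between -0.02 and 0.03 log2 in the 5 designed comparisons, and that of all tested probe sets between -0.02 and 0.00. Comparisons that share a group, such as both that use NT_V, are not independent of each other.

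**Figure D3:**
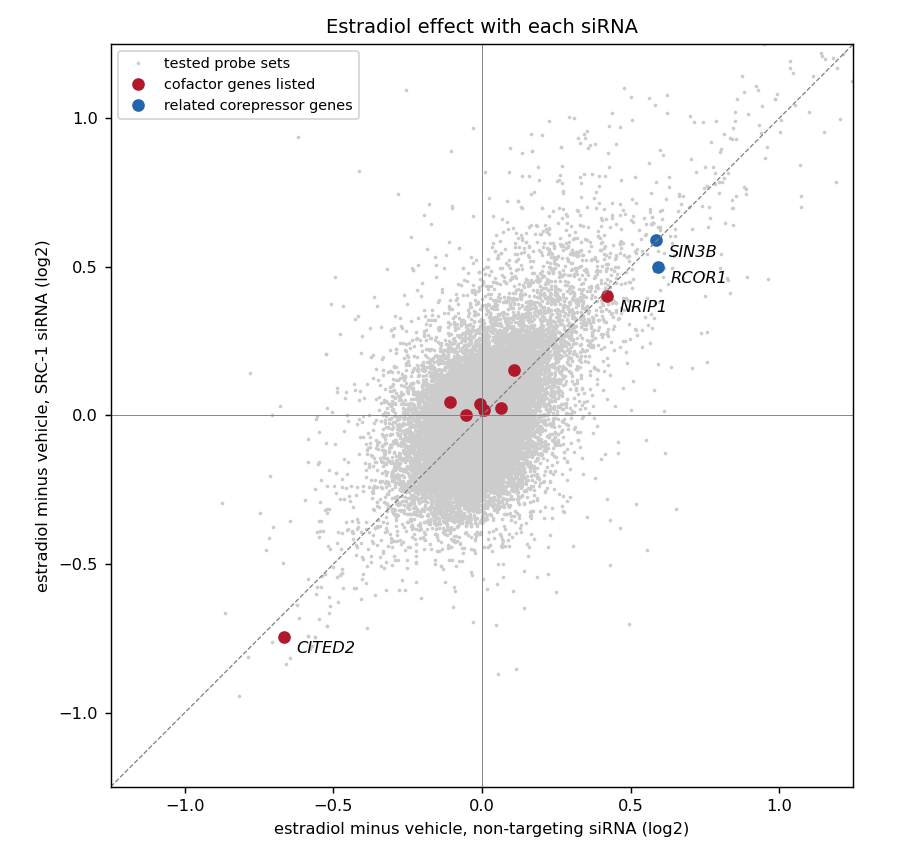
Estradiol effect with SRC-1 siRNA (y axis, log2) against that with non-targeting siRNA (x axis, log2) for the tested probe sets, of which 33 lie beyond the axes, with the 8 measured genes in red and a dashed line where both effects are equal. NRIP1 lies at 0.42 and 0.40, CITED2 at -0.67 and -0.74, and the other 6 lie near 0 on both axes.

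In the difference of the estradiol effects 0 of 8 members and 0 of 29094 probe sets (0%) were called by limma, while 2102 probe sets passed 0.05 before adjustment. A trended, robust variance estimate called 2. The standard error of that difference had a median of 0.10 log2 over all probe sets.

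The estradiol groups also differed in the probe sets taken here as array controls, which were left out of the tests. Their mean deviation was 0.135 ± 0.042 log2 in siSRC-1_E and -0.091 ± 0.067 in siSRC-1_V cells, and 0.032 ± 0.036 in NT_E and -0.076 ± 0.043 in NT_V cells (SD, n = 3 each). With that deviation as a covariate CITED2 stayed called with both siRNAs, unlike NRIP1, and the averaged LCOR difference became 0.00065 log2. The covariate separates the treatments, so it can take up part of an estradiol effect, and the standard errors are larger with it.

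**Figure D4:**
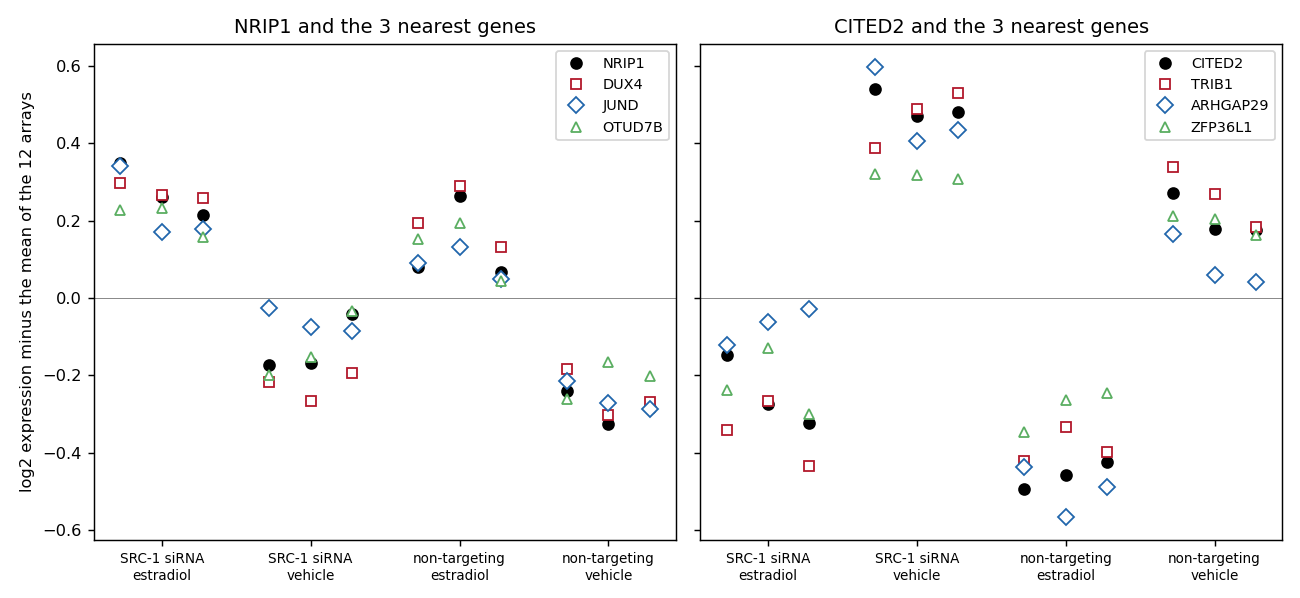
Centred log2 signal over the 12 arrays for NRIP1 and CITED2 (filled points) and the 3 genes nearest to each (open symbols), with 1 point per array. The genes nearest to NRIP1 are higher, and those nearest to CITED2 lower, on estradiol arrays than on vehicle arrays with the same siRNA.

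The genes whose pattern over the 12 arrays was nearest to each called member were found among 16623 candidates, by the root mean square difference of centred log2 signals. For NRIP1 these were DUX4 at 0.0718 log2, JUND at 0.0724 and OTUD7B at 0.0727, against a median of 0.248 over all candidates. JUND is an AP-1 subunit and OTUD7B a deubiquitinase, and each was called higher with estradiol under both siRNAs, JUND by 0.35 log2 with non-targeting and 0.29 with SRC-1 siRNA. With the control probe set covariate JUND lost both calls (limma, adjusted p = 0.0802 and 0.569), and OTUD7B, DUX4, TRIB1 and ZFP36L1 lost theirs with SRC-1 siRNA (0.0831 to 0.227). JUND also lost that with SRC-1 siRNA when only the compared arrays were fitted (0.057). DUX4 is present in near-identical repeat copies, so its signal cannot be assigned to 1 copy. For CITED2 they were TRIB1 at 0.0959, ARHGAP29 at 0.131 and ZFP36L1 at 0.137, against a median of 0.380. TRIB1, a pseudokinase, was -0.65 log2 with non-targeting and -0.82 with SRC-1 siRNA. ARHGAP29 was -0.59 and -0.55 log2 in these comparisons, and ZFP36L1, which promotes decay of AU-rich mRNAs, -0.48 and -0.54. ARHGAP29 was also called higher with SRC-1 siRNA under vehicle, by 0.39 log2. This call was lost without NT_V replicate 3 (0.37 log2, limma, adjusted p = 0.0532) and when only the compared arrays were fitted (0.0994). Under estradiol ARHGAP29 was called higher by 0.43 log2. Leaving out any 1 array kept that call (limma, adjusted p between 0.00344 and 0.0335), and 1 of the 9 other alternatives ended it (limma, adjusted p = 0.118). These genes were selected for the likeness, so it is a description.

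A broader list of 88 related cofactors placed the members among their partners, and 83 had a probe set. With estradiol 2 of 83 were called higher and 0 lower under non-targeting siRNA, and 3 higher and 0 lower under SRC-1 siRNA. For SRC-1 siRNA 1 was higher and 1 lower under vehicle, and 1 higher and 0 lower under estradiol. Shares of 2.41%, 3.61%, 2.41% and 1.20% thus stood beside the 2.73%, 6.88%, 1.21% and 1.80% of all probe sets.

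Both genes called with non-targeting siRNA encode scaffolds of histone deacetylase complexes. RCOR1 (CoREST) had signals of 10.04, 10.04 and 10.03 in NT_E cells, against 9.46, 9.48 and 9.41 in NT_V cells, a difference of 0.59 ± 0.05 log2 (limma, adjusted p = 8.65e-05). In siSRC-1_E cells they were 10.09, 9.89 and 10.02, against 9.54, 9.43 and 9.53 in siSRC-1_V cells, a difference of 0.50 ± 0.05 (limma, adjusted p = 0.000236). SIN3B had signals of 9.04, 9.06 and 8.96 in NT_E cells, against 8.46, 8.49 and 8.35 in NT_V cells. In siSRC-1_E cells they were 9.16, 9.10 and 8.93, against 8.44, 8.53 and 8.45 in siSRC-1_V cells. Estradiol raised SIN3B by 0.59 ± 0.06 log2 with each siRNA (limma, adjusted p = 0.00034 non-targeting and 0.00025 SRC-1). Both genes kept these calls without any 1 array, and both separated completely by treatment. With the covariate RCOR1 lost its call with SRC-1 siRNA (0.37 log2, limma, adjusted p = 0.347).

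**Figure D5:**
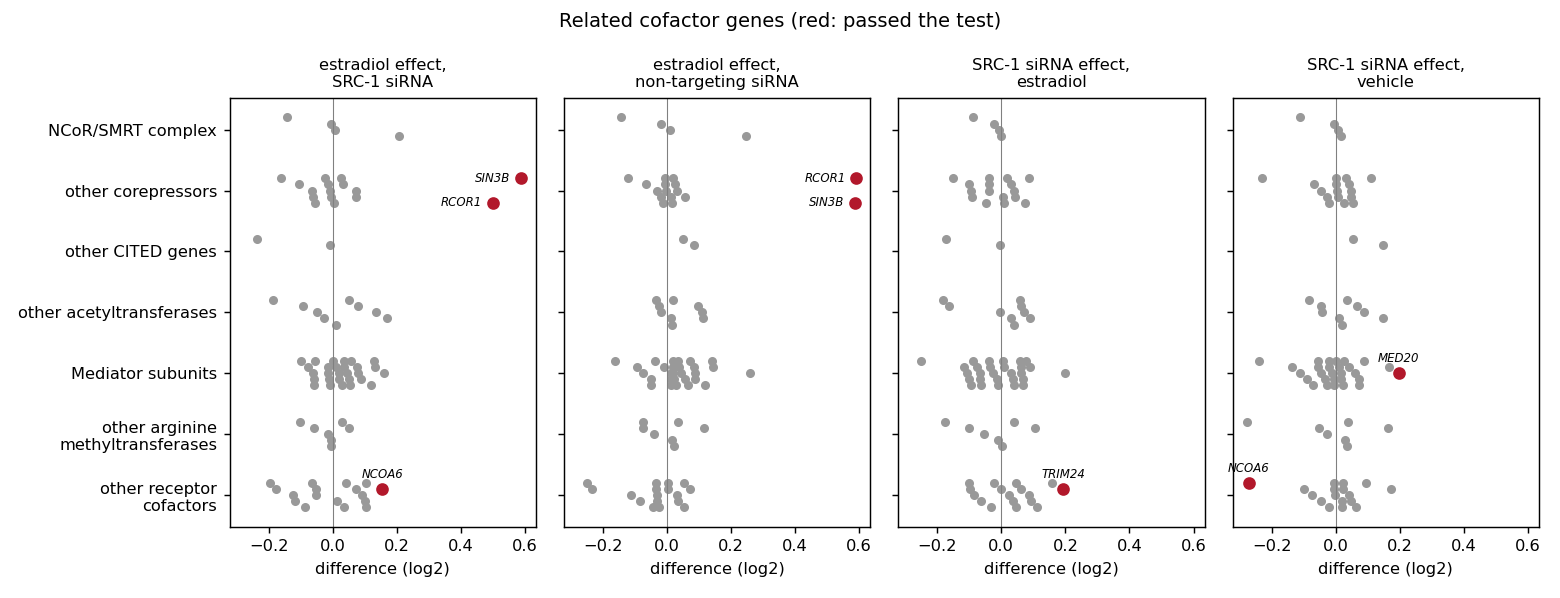
Log2 differences of the 83 measured related cofactors in the 4 comparisons of 2 groups, by list, with 1 point per gene and the called genes in red. RCOR1 and SIN3B stand apart at 0.50 to 0.59 log2 with estradiol, and the knockdown differences lie within 0.28 log2 of 0.

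The SRC-1 siRNA calls in the related list were small. NCOA6, a coactivator that binds nuclear receptors, had signals of 8.88, 8.84 and 8.83 in siSRC-1_V cells, against 9.09, 9.17 and 9.09 in NT_V cells, a difference of -0.27 ± 0.04 log2 (limma, adjusted p = 0.00748) that was kept without any 1 array and lost when only the compared arrays were fitted (limma, adjusted p = 0.101). With estradiol under SRC-1 siRNA NCOA6 was 0.15 ± 0.04 log2 higher (limma, adjusted p = 0.0439), a call kept only without NT_V replicate 2 or siSRC-1_V replicate 1, and otherwise lost at adjusted p up to 0.132. MED20, a Mediator subunit, was 0.20 ± 0.04 log2 higher in siSRC-1_V than in NT_V cells (limma, adjusted p = 0.0319), a call kept only without NT_E replicate 3 and otherwise lost at up to 0.144. TRIM24, a hormone receptor cofactor that reads histone marks, was 0.19 ± 0.04 log2 higher in siSRC-1_E than in NT_E cells (limma, adjusted p = 0.0451), a call kept only without siSRC-1_V replicate 1 or 2 and otherwise lost at up to 0.151. Of the 9 alternatives that leave out no array, 4 ended the estradiol call of NCOA6, 3 that of MED20 and 5 that of TRIM24. The average over both treatments was added after the data had been seen. There SRC-1 siRNA gave 0.18 ± 0.03 log2 for TRIM24, 0.14 ± 0.03 for MED20 and -0.18 ± 0.03 for NCOA6 (limma, adjusted p = 0.00521, 0.0158 and 0.00467). Leaving out any 1 array kept these averaged calls, and 1 of 8 other alternatives ended that of MED20 (limma, adjusted p = 0.0603).

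By list, the measured partners of NCoR (4 genes) had 0 calls in each of the 5 designed comparisons, and so did the other CITED genes (2), the other acetyltransferases and PCAF partners (9) and the other arginine methyltransferases (7). In these 5 comparisons RCOR1 and SIN3B were the only calls among the 16 other corepressors and deacetylase partners, and MED20 was among 28 Mediator subunits. The averaged comparisons called genes in more of these lists, as given under the other observations.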

How the data were processed

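The authors deposited 1 log2 value per probe set for each of 12 Affymetrix Human Gene 1.0 ST arrays, made with affy and tested with limma per the submitters' processing notes. Versions, background correction, normalization and summarization are not given in the sources used here. These values were not changed. The table has 33297 probe sets, and the 4203 numbered lower than any gene-annotated probe set were treated as controls and left out, an inference from their numbers. Of the 29094 tested, 19460 have 1 gene symbol, 1754 several and 7880 none.

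The model, run in limma 3.58.1 (R 4.3.3), had 1 mean for each group over the 12 arrays (3.15 prior and 8 residual degrees of freedom, two-sided). The designed contrasts were estradiol with each siRNA, SRC-1 siRNA with each treatment, and the difference of the estradiol effects. The 2 averaged contrasts, and a quantile normalization that includes the controls, were added once the data had been seen. The call thresholds are those of the study. No depth applies to arrays, and 3 per group limit the precision: a 2-group difference had a median SE of 0.07 log2. The p-values measure the spread between arrays labelled as biological replicates.

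The members and lists were chosen with earlier results of these data known. Named genes are the members, NCOA1, ESR1, the 3 genes nearest in pattern to each called member, and up to 4 related cofactors called per designed contrast with the smallest p. Alternatives were a replicate block, fitting only compared arrays, leaving out the dimmest 40% of probe sets, testing the control probe sets too, median centring, renewed quantile normalization, a robust variance with a trend, a covariate from the control probe sets, and each array left out. The fit was tested on simulated data. Promoter windows are from RefSeq. Figures were drawn with matplotlib 3.10.9.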

Additional observations from a re-analysis of the deposited data

Results flagged for a closer look

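The probe sets taken as array controls were left out of the main tests, and their signal moved with the treatment. They entered the covariate and the alternatives that test them or normalize with them. Their mean deviation was 0.109 log2 higher in NT_E than in NT_V arrays and 0.226 log2 higher in siSRC-1_E than in siSRC-1_V arrays. By group it lay between 0.094 and 0.178 in siSRC-1_E, between -0.159 and -0.024 in siSRC-1_V, between -0.003 and 0.068 in NT_E, and between -0.123 and -0.039 in NT_V arrays. Of the 4203 such probe sets, limma called 48 with estradiol under non-targeting siRNA (45 higher) and 391 under SRC-1 siRNA (384 higher). How far this shift enters the values of the members was tested only through the covariate fit and the quantile normalization that includes these probe sets. No member had all estradiol arrays above vehicle with 1 siRNA and all below with the other.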

How the results depend on the processing

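No called value changed its sign under any alternative. Among values not called, several did, and not all are listed here. With the control probe sets as a covariate, estradiol with SRC-1 siRNA turned to -0.02 log2 for LCOR, -0.07 for EP300 and -0.26 for KAT2B. The difference of effects turned to -0.04 for LCOR and -0.0019 for KAT2B, and SRC-1 siRNA under estradiol to -0.11 for KAT2B. The estradiol calls of NRIP1 and CITED2 were kept under every alternative except that NRIP1 lost both with the control probe sets as a covariate. That covariate gave 366 called probe sets and 1 member for estradiol with non-targeting siRNA, 106 and 1 after SRC-1 siRNA, 212 and 1 averaged, 121 for SRC-1 siRNA under estradiol and 863 averaged. Fitting only the compared arrays gave 958 called for estradiol with SRC-1 siRNA, 90 and 0 members for SRC-1 siRNA under vehicle, and 174 under estradiol; it cannot be applied to the difference or the averages, which need all 4 groups. Without the dimmest probe sets, SRC-1 siRNA gave 728 under vehicle, and 1117 and 1 member (CITED2, adjusted p = 0.0299, limma) under estradiol. Averaged, it gave 2344 and 3 members (CITED2, NRIP1 and CARM1). A trended and robust variance gave 857, 1246 and 1 member (CITED2), 2422 and the same 3 members in these comparisons, and 2 for the difference. Median centring left 0 members for SRC-1 siRNA under vehicle (CITED2, 0.28 log2, limma adjusted p = 0.0572). Leaving out 1 array gave 531 to 783 called and 2 members for estradiol with non-targeting siRNA, 1042 to 2956 and 2 with SRC-1 siRNA, 169 to 338 and 0 to 1 for SRC-1 siRNA under vehicle, 216 to 547 and 0 under estradiol, 0 for the difference, 2076 to 3725 and 2 to 3 for averaged estradiol, and 897 to 1274 and 1 to 2 for averaged SRC-1 siRNA. Quantile normalization over all probe sets moved the share called higher with estradiol under SRC-1 siRNA to 48.3% of 2293, against 65.3% of 2001 as deposited, and the averaged share to 45.0%, against 61.4%. Causes of these moves were not tested. Every measured member has 1 probe set, so no other could be tried.

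The main fit did not treat the replicate numbers as pairs, although same-numbered arrays were weakly more alike. Deviations of same-numbered arrays correlated above 0.1 in 6 of 18 pairs (-0.035 to 0.209, median 0.063). For different numbers this held in 2 of 36 pairs (-0.264 to 0.115, median -0.021). Of the 12 arrays, 10 correlated best with their own number. With the replicate number as a block, 807, 2308, 327, 520 and 0 probe sets were called in the 5 designed comparisons and 3290 and 1464 in the averages, and the count of members called was the same in all 7. MED20 (adjusted p = 0.0546, limma) and TRIM24 (0.0637) lost their calls with it.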

Other observations

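In the averaged comparisons, which were added after the data had been seen, more of the 83 measured related cofactors were called than in the designed ones. With estradiol, averaged over both siRNAs, 8 were higher and 3 lower (13.3%, where 9.96% of all tested probe sets were called). With SRC-1 siRNA, averaged over both treatments, 3 were higher and 5 lower (9.64%, where 5.10% of all were). By list, averaged estradiol called 1 higher and 1 lower of 4 NCoR partners, and 2 and 1 of 16 other corepressors. It also called 1 and 0 of 9 acetyltransferases and partners, and 4 and 1 of 28 Mediator subunits. Averaged SRC-1 siRNA called 0 and 1 of the 16, 2 and 2 of the 28, 0 and 1 of 7 arginine methyltransferases, and 1 and 1 of 17 other receptor cofactors. The largest sizes were 0.59 log2 (SIN3B) and 0.55 log2 (RCOR1) for estradiol, while the medians of the list were 0.01 and 0.00 log2.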
